A study of Mus musculus with 15 samples.

Results

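The proteins encoded by Actl7a, Actl7b, Actl9, Actrt2, Actrt3, Cylc2, Ccin and Capza3 belong to the cytoskeleton of the haploid male germ cell, and their transcripts were described in mouse testis across 5 groups of 3 libraries. The 8 genes were taken by their Entrez IDs (11470, 11471, 69481, 73353, 76652, 74914, 442829 and 12344) from a table of 23510 gene rows, and each matched 1 row. All 8 were among the 14514 rows with a mean of 1 or more FPKM (fragments mapped to a transcript, scaled by its length and by the library's mapped total) over the 15 libraries, which were the rows tested. The rule that picked them used no measured value, although the list was chosen with earlier results of these data known.

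All mice were males of the outbred ICR stock. Lentivirus was injected into the testes at 5 weeks of age and the testes were taken 10 days later. M1, M3 and M5 testes received shRNAs against the muscarinic acetylcholine receptors of those names, 3 shRNAs mixed per receptor. MNC testes received the vector control of these viruses, for which the study's methods list a control shRNA named shNC. Con testes are labelled as control only, and what they received is not given in the sources used here. The share of cells that took up virus is not given either, and no source says that the 3 libraries of a group came from separate mice, so p-values measure the spread between these samples. In whole testis, fewer cells of a type and less RNA per cell cannot be told apart.

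During spermiogenesis the acrosome is fastened to the nucleus by a thin, detergent-resistant layer called the perinuclear theca. Its part under the acrosome, the subacrosomal layer or acroplaxome, holds actin-related proteins, and its part behind the acrosome, the calyx, holds the basic cylicins and the kelch-repeat protein calicin. ACTL7A, ACTL9 and ACTRT2 are known as partners in the subacrosomal complex, and loss of ACTL7A or ACTL9 is known to detach the acrosome and to impair fertilization. ACTL7B is needed for spermatid shaping, ACTRT3 is known to associate with profilin 3, and CAPZA3 is the testis-specific alpha subunit of the protein that caps actin filaments.

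Most of these genes are compact. In RefSeq GRCm38.p6, which is the mm10 build named in the labels, Actl7a lies at chr4:56743422-56744925 on the plus strand and Actl7b at chr4:56740005-56741425 on the minus strand, so that both start from a shared stretch of 1996 bases. Ccin (chr4:43983504-43985533, plus), Cylc2 (chr4:51216653-51250625, plus) and Actrt2 (chr4:154666428-154667867, minus) are on the same chromosome. Actl9 is at chr17:33432899-33434268 (plus), Actrt3 at chr3:30597073-30599870 (minus) and Capza3 at chr6:140041557-140042837 (plus). Capza3 lies 68 bases from Plcz1, which encodes the sperm phospholipase that activates the egg. In the GENCODE annotation, 5 of the 8 genes (Actl7a, Actl7b, Actl9, Actrt2 and Ccin) have 1 exon, Actrt3 has 2, Capza3 has 1 or 2 and Cylc2 has 4 or 5, depending on the transcript.

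Promoters of 6 of the 8 genes matched the RefSeq promoter table of GRCm38.p6, which gives 250 bases before to 50 after each start. Cylc2 and Capza3 are not among them. The letters TGANGTCA, where N is any base, were found on either strand in 4 of the 6 (Actl7a, Actl7b, Actl9 and Ccin) and in 8.83% of the 32851 promoters of the table. The pattern was written down after these promoters were read, so the count is a description. The 150 bases before the start are shown for these 4 genes, to let the likeness of the upstream letters be seen, 5' to 3' along the gene's own strand and with the matches in capitals.
Actl7a, chr4:56743272-56743421, plus strand: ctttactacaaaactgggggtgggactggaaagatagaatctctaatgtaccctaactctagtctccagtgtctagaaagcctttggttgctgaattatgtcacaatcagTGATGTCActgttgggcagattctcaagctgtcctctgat
Actl7b, chr4:56741426-56741575, minus strand: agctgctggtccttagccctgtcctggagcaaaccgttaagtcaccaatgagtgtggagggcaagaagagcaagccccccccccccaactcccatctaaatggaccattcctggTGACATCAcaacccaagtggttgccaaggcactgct
Actl9, chr17:33432749-33432898, plus strand: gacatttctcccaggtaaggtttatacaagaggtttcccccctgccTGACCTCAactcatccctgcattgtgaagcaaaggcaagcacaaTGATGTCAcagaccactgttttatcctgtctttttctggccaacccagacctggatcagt
Ccin, chr4:43983354-43983503, plus strand: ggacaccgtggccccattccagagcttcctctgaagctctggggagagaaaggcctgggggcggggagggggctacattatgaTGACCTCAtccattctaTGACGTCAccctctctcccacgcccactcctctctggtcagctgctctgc
The match began 40 bases before the start in Actl7a and 36 in Actl7b. Actl9 had matches at 104 and 60 bases, and Ccin at 67 and 50 bases. The match of Ccin at 50 bases is palindromic and overlaps the shorter letters TGACGT, found in no other of the 6 promoters and in 7.51% of all, and TGACG, found in Ccin and Actrt3 and in 20.8% of all. Other letters were in 1 or 2 of the 6: TATAAA in Actl9 (13.6% of all promoters), CCAAT in Actl7b (37.4%), GGGCGG in Ccin (35.7%) and GTTGCC in Actl7b and Actrt2 (12.5%). A match is a run of letters and not a measured site.

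The libraries were alike in the number of genes above 0, at 20619 to 20840, and the depth of single libraries was not estimated. With 1 depth assumed for all 15 libraries, steps between low FPKM values put it at an estimated 21800000 fragments (quartiles 20000000 to 24500000 over 114 genes). The length of each longest transcript was used for this. At that depth the 8 genes held from 1677 fragments per library (Actrt3) to 11805 (Actl7b), a counting error of 0.92% to 2.44%, which is less than their mean coefficient of variation within groups of 5.29% to 9.14%. The knocked-down receptors gave no check of the labels, since Chrm1 (0.06 to 0.17 FPKM), Chrm3 (0.01 to 0.11) and Chrm5 (0.19 to 0.43) were close to 0 in all 15 libraries. Markers of testis cells were present at high levels, such as Prm1 (mean 6580 FPKM), Sycp3 (144) and Insl3 (1254), while Crisp1, an epididymal marker, had a mean of 4.86 FPKM. Crisp1 was at 2.86 to 32.26 FPKM in Con, at 0.68 to 19.4 in M3, and at 0.15 or less in every MNC, M1 and M5 library. M3 replicate 3 stood apart from the other M3 libraries and near M5 for several genes, and M5 replicate 3 stood apart from the other M5 libraries, so results on M3 and M5 are also given without them.

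The levels of the 8 genes differed by about an order of magnitude. Per length, Actl7b had the highest mean (377 FPKM over 15 libraries), followed by Actrt2 (318), Actl7a (237), Actl9 (228), Capza3 (179), Cylc2 (129.7), Ccin (107) and Actrt3 (39.3). These means stood between the 88.7th percentile (Actrt3) and the 99.4th percentile (Actl7b) of all rows of the table.

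Actl7a, one of the subacrosomal partners, was lowest in Con. Its 3 Con libraries had 194, 184 and 204 FPKM, the MNC libraries 230.2, 266 and 262, and the M1 libraries 267, 262 and 271. The M3 libraries had 271, 249.6 and 236 FPKM, and the M5 libraries 228, 226 and 207. Con did not overlap with any other group, and M5 lay below MNC, M1 and M3 without overlap.

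Actl9, the other gene known from acrosome detachment, was also lowest by mean in Con and next lowest in M5. It had 183, 164 and 210.3 FPKM in Con, 251, 261 and 271 in MNC, 262, 263 and 249 in M1, 253, 238 and 231 in M3, and 199, 204 and 188 in M5. MNC, M1 and M3 lay above Con, and M5 overlapped with Con and lay below the other 3 groups. The M5 mean was 197 ± 8.17 FPKM (SD, n = 3), against 186 ± 23.2 in Con and 261 ± 10.1 in MNC.

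Actrt2, their actin-related partner, varied more within groups. It had 298, 234 and 301 FPKM in Con, 278, 351 and 377 in MNC, 351, 329 and 356 in M1, 346, 364 and 322 in M3, and 285, 309.7 and 273 in M5. M1 and M3 lay above Con without overlap, while MNC and M5 overlapped with Con.

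Actl7b, the neighbour of Actl7a, was the most even of the 8. It had 376, 399 and 338 FPKM in Con, 365, 408 and 404 in MNC, 403, 359.6 and 409.7 in M1, 404, 366 and 373 in M3, and 337, 340.9 and 371 in M5, and all neighbouring groups in the order of means overlapped. The ratio of Actl7a to Actl7b was 0.526 ± 0.071 in Con (SD, n = 3), 0.644 ± 0.011 in MNC, 0.684 ± 0.039 in M1, 0.662 ± 0.025 in M3 and 0.631 ± 0.065 in M5. The lowest M5 library, at 0.557, overlapped with the highest Con library, at 0.602.

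Actrt3, the partner of profilin 3, had 35.9, 31.8 and 40.8 FPKM in Con and 36.2, 42.8 and 47.4 in MNC. It had 39.0, 38.9 and 41.3 in M1, 39.98, 41.7 and 39.2 in M3, and 38.2, 41.4 and 35.0 in M5. No 2 neighbouring groups in the order of means were apart.

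Ccin, which encodes calicin of the calyx, had 98.1, 89.2 and 102 FPKM in Con, 103, 128 and 134 in MNC, and 112.9, 113 and 124 in M1. In M3 it had 116, 113 and 97.6, and in M5 86.5, 99.95 and 89.9. M3 replicate 3 was at 97.6 FPKM, within the range of M5, while the other M3 libraries were at 113 and 116. MNC and M1 lay above Con, and M5 lay below MNC and M1.

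Cylc2, a cylicin of the same structure, had another order. It had 88.0, 79.3 and 100.03 FPKM in Con, 127, 131 and 129 in MNC, 126, 129.6 and 115 in M1, 132, 136 and 158 in M3, and 177, 181 and 139 in M5. It was lowest in Con and highest in M5, with M3 replicate 3 (158) above the lowest M5 library (139). The M5 mean of 165 ± 22.8 FPKM was 1.86-fold that of Con (89.1 ± 10.4, SD, n = 3).

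Capza3 had 145, 133 and 152 FPKM in Con, 189.8, 199 and 166 in MNC, 173, 172 and 181 in M1, 199, 197 and 222 in M3, and 189, 188 and 184 in M5. Con lay below every other library, and M3 lay above M5 without overlap. Plcz1, its close neighbour on the chromosome, was at 97.5 ± 9.95 FPKM in Con (SD, n = 3) and at means of 143 to 160.02 in the other groups. The ratio of Capza3 to Plcz1 was 1.41 to 1.52 in the Con libraries and 1.19 to 1.32 in the other 12, with no overlap.

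**Figure D1:**
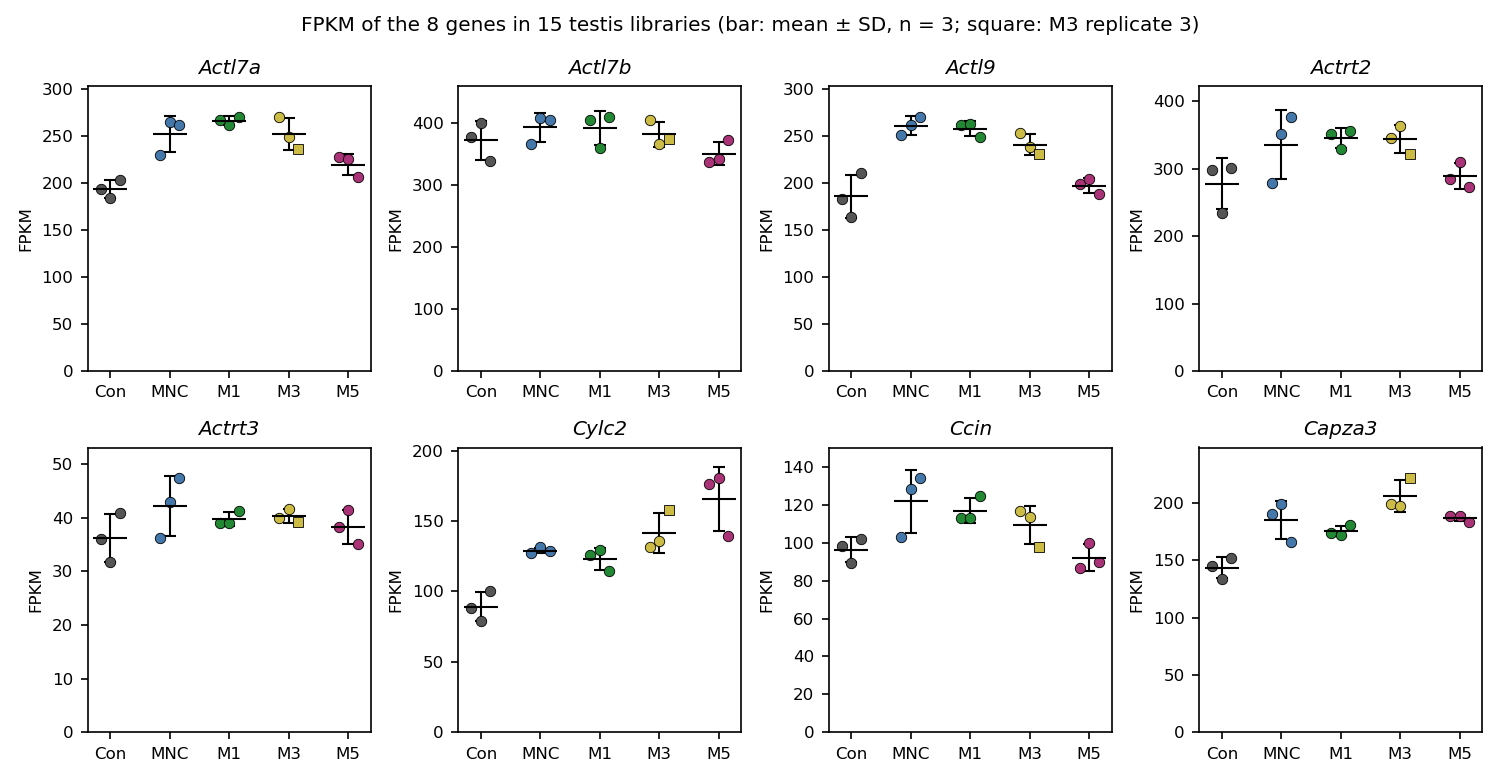
FPKM (vertical axes, each from 0) of the 8 genes in each of 15 libraries by group (horizontal axes), with the mean and SD of 3 libraries per group. Con is lowest for Actl7a and Cylc2, Actl9 in M5 (188 to 204) falls to the level of Con (164 to 210.3), and Cylc2 is highest in M5 (139 to 181).

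MNC, the vector control, was compared with Con. The sources used here do not give what Con received. The vector, its control shRNA and its injection therefore cannot be told apart from other differences between these groups. Of the 8 genes, 4 were called higher in MNC (limma adjusted p under 0.05 over all genes tested), where 8.03% of all genes were called higher and 20.4% in either direction. The 4 were Cylc2, Actl9, Actl7a and Capza3. All 8 had a positive difference, with a median of 0.34 on the log2(FPKM + 1) scale against -0.10 over all genes tested.

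Cylc2 rose by 0.54 on this scale (SE 0.085, limma adjusted p = 0.0198) and Actl9 by 0.49 (SE 0.093, limma adjusted p = 0.0254), a fold of 1.45 and 1.41. Actl7a rose by 0.38 (SE 0.071, limma adjusted p = 0.0254) and Capza3 by 0.36 (SE 0.083, limma adjusted p = 0.0343). Ccin did not pass (0.33, SE 0.11, limma adjusted p = 0.0760), nor did Actrt2 (0.27, SE 0.15, limma adjusted p = 0.209) and Actrt3 (0.21, SE 0.13, limma adjusted p = 0.244). The value of Actl7b was 0.08 with a 95% interval of -0.11 to 0.27 (limma adjusted p = 0.462), and it turned to -0.03 with quantile normalization. Every MNC library was above every Con library for 5 genes, the 4 called and Ccin, as it was for 15% of all genes tested.

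The 4 calls were lost in several fits with 1 library left out, while the differences stayed positive, at 0.46 to 0.62 for Cylc2, 0.41 to 0.59 for Actl9, 0.34 to 0.44 for Actl7a and 0.31 to 0.44 for Capza3. None was left without Con replicate 1, Con replicate 2 or MNC replicate 2, and 2 were left without MNC replicate 3, while over all genes 8, 195, 638 and 1032 were called in these fits.

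The 4 groups that received lentivirus were also set together against Con, in a fit of all 15 libraries. The same 4 genes were called higher, where 11.8% of all genes were called higher and 34.2% in either direction. Cylc2 rose by 0.64 (SE 0.084, limma adjusted p = 0.0003), Capza3 by 0.39 (SE 0.056, limma adjusted p = 0.00047), Actl9 by 0.36 (SE 0.060, limma adjusted p = 0.0011) and Actl7a by 0.35 (SE 0.054, limma adjusted p = 0.00068). Actrt2 (0.24, limma adjusted p = 0.0526), Ccin (0.18, limma adjusted p = 0.0964), Actrt3 (0.15, limma adjusted p = 0.163) and Actl7b (0.03, limma adjusted p = 0.739, and -0.09 with quantile normalization) were not called. Cylc2, Capza3 and Actl7a were above all 3 Con libraries in each of the 12 others, as were 6.25% of all genes tested. Taken by group, 6 of the 8 were above Con without overlap in M1 (all but Actl7b and Actrt3, 15.1% of all genes), 5 in M3 (the same but for Ccin, 12.8%) and 3 in M5 (17.9%). The median of the 8 genes was 0.30, against -0.10 over all genes. Centring each library on its median moved these medians to 0.40 and 0.01.

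Other genes with roles near those of the 8 were taken from a list of 12 genes of the theca, the subacrosomal layer and spermatid actin. In MNC against Con 4 of the 12 were called higher and 1 lower, with a median log2 difference of 0.18. Those called higher were Actl11, a spermatid actin-like gene (82.1 ± 17.7 FPKM in Con, 141 ± 13.1 in MNC, limma adjusted p = 0.0278), and Plcz1 (97.5 ± 9.95 and 148 ± 9.71, limma adjusted p = 0.0175). So were Pfn3, which encodes profilin 3 (37.5 ± 5.16 and 55.4 ± 6.39, limma adjusted p = 0.0333), and Fam209 (204 ± 4.70 and 267 ± 15.5, limma adjusted p = 0.0175, all SD, n = 3). Dpy19l2, of the inner nuclear membrane that faces the acrosome, fell from 86.8 ± 4.44 to 73.6 ± 2.14 FPKM (SD, n = 3, limma adjusted p = 0.0333). Actl11, Plcz1, Pfn3 and Dpy19l2 are named because they were called. Fabp9, the list's most abundant gene, was at 0.16 (limma adjusted p = 0.0967) and Spaca1, needed for acrosome shape, at 0.10 (limma adjusted p = 0.438).
Cylc1, the other cylicin gene, was at 50.8 ± 1.61 FPKM in Con and 49.1 ± 5.32 in MNC (SD, n = 3, limma adjusted p = 0.654), so the ratio of Cylc2 to Cylc1 was 1.61 to 1.91 in Con and 2.45 to 2.96 in MNC. Cylc1 is named for its relation to Cylc2, after its values were seen.

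Of 11 genes listed as widely expressed, for actins, actin-related proteins and capping subunits, none was called higher in MNC than in Con. Called lower were 2, Acta2 (25.3 ± 1.30 and 18.01 ± 0.87 FPKM, SD, n = 3) and Actr1a. Acta2 is also on the list of peritubular myoid cell markers, so its call is counted in both lists. Actb was at a log2 difference of 0.14 (limma adjusted p = 0.127), Actg1 at -0.22 (limma adjusted p = 0.0765) and Capzb at 0.22 (limma adjusted p = 0.0580). The median of these 11 was -0.13, against -0.10 over all genes tested.

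Markers of other germ cell stages moved in the same comparison. Of 12 markers of elongating spermatids, 6 were called higher in MNC and none lower (Oaz3, Smcp, Gapdhs, Hils1, Prm3 and Odf1), with a median of 0.68 and a summed level of 12952 to 24191 FPKM in the Con libraries against 26375 to 32825 in MNC. Of 10 markers of round spermatids 3 were called higher, Acrv1, Tssk1 and Catsper3 (median 0.15, sum 1015 to 1067 against 1123 to 1175 FPKM), and of 10 markers of spermatocytes 6 were called lower, Sycp1, Sycp2, Sycp3, Hormad1, Spo11 and Tex101 (median -0.34, sum 817 to 872 against 656 to 680.1 FPKM). Prm1 of elongating spermatids was at 4559, 2951 and 5954 FPKM in the Con libraries, and Con replicate 2, the lowest, was also the lowest of the 15 for 6 of the 8 genes, all but Actl7b and Ccin. All 7 interferon response genes tested of 10 listed were called higher, with a summed level of 21.6 to 22.0 FPKM in Con and 45.3 to 79.3 in MNC. The protamine and transition protein genes with the highest levels did not pass: Prm1 was at 0.66 (limma adjusted p = 0.117), Prm2 at 1.08 (limma adjusted p = 0.0544) and Tnp2 at 0.53 (limma adjusted p = 0.144). The part of these in the values of the 8 genes was not tested.

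Markers of somatic cells, spermatogonia and the epididymis gave few calls in that comparison. Cldn11 was lower among 8 Sertoli cell markers, Acta2 and Cnn1 among 5 of peritubular myoid cells, Hba-a1 among 5 tested of red blood cells and Crisp1 among 2 tested of the epididymis, and no marker was called among 6 of Leydig cells, 5 tested of macrophages and 6 tested of spermatogonia. The summed epididymal markers were at 17.0 to 36.5 FPKM in Con and 1.46 to 2.17 in MNC, and their part in the values of the 8 genes was not tested.

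M1 and M3 were compared with MNC to ask what knockdown of these receptors changes, and the comparisons share the MNC libraries. None of the 8 genes was called in M1 against MNC, where limma called 0% of all genes and 862 of 14514 had an unadjusted p under 0.05. Their differences ranged from -0.07 (Actrt3 and Capza3) to 0.08 (Actl7a, 95% interval -0.07 to 0.23), and none of the 8 was apart between the groups, where 5.04% of all genes were above and 6.97% below without overlap. None was called in M3 against MNC either, where limma called 0.00689% of all genes and 1369 had an unadjusted p under 0.05. The differences there ranged from -0.15 for Ccin (95% interval -0.44 to 0.13) to 0.16 for Capza3 (-0.05 to 0.36), and without M3 replicate 3 these were -0.07 and 0.10. In M3 every library of Cylc2 was above every MNC library, as for 6.49% of all genes, by 0.13 (limma adjusted p = 0.574), which was 0.05 without M3 replicate 3. For Actl7a, Actl7b and Actl9 the 95% intervals in both comparisons stayed between -0.26 and 0.23. The summed epididymal markers were at 4.81 to 24.25 FPKM in M3, against 1.46 to 2.17 in MNC. They were at 2.24 to 3.08 FPKM in M1 and 3.09 to 3.76 in M5. Their part in the values of the 8 genes was not tested.

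The comparison of M5 with MNC asked the same for the M5 receptor, and it gave 1 call among the 8 genes. Actl9 fell by 0.40 (SE 0.058, limma adjusted p = 0.0218), a fold of 0.757, where 2.89% of all genes were called lower, 2.76% higher and 5.65% in either direction. Ccin was at -0.39 (SE 0.11, limma adjusted p = 0.0924) and Cylc2 at 0.35 (SE 0.10, limma adjusted p = 0.102), and neither passed. Actl7a was at -0.20 (limma adjusted p = 0.172), Actrt2 at -0.20 (limma adjusted p = 0.346), Actl7b at -0.16 (limma adjusted p = 0.209) and Actrt3 at -0.13 (limma adjusted p = 0.515). Capza3 was at 0.02, with a 95% interval of -0.16 to 0.20 and a turn to -0.02 on centring, -0.01 with quantile normalization and -0.08 with the GC trend removed. Every M5 library was below every MNC library for Actl9, Ccin and Actl7a (15.5% of all genes) and above for Cylc2 (16.6%).

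Without M5 replicate 3, Cylc2 was called as well (0.46, limma adjusted p = 0.0180) and Actl9 remained called (-0.37, limma adjusted p = 0.0284). That fit called 6.52% of all genes. The call of Actl9 was lost without MNC replicate 2 or 3 and without M5 replicate 1 or 2. Over all genes 92, 60, 85 and 35 were called in these fits. With all 5 groups in one fit Actl9, Ccin and Cylc2 were called, where that fit called 2424 of the 14514 genes (16.7%) against 820 in the fit of M5 and MNC.

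**Figure D2:**
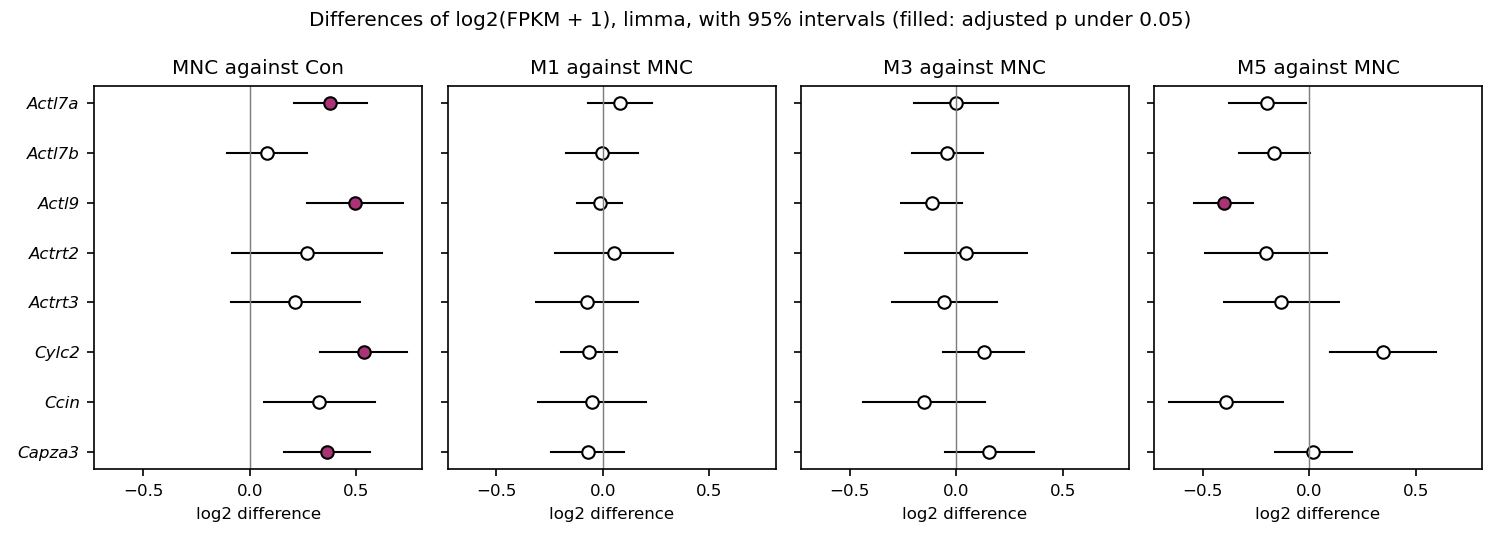
Difference in log2(FPKM + 1) (horizontal axes) of the 8 genes (vertical axis) in 4 comparisons, with 95% intervals from limma and filled points for an adjusted p under 0.05. In MNC against Con 4 genes are called higher, in M1 and M3 against MNC none is called, and in M5 against MNC Actl9 is called lower (-0.40) while Cylc2 (0.35) lies on the other side of 0.

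Set directly against M1, in a comparison that uses no MNC library, M5 had 3 of the 8 genes called lower, where 3.52% of all genes were called lower, 3.23% higher and 6.75% in either direction. Actl9 fell by 0.39 (SE 0.052, limma adjusted p = 0.0156), Ccin by 0.34 (SE 0.072, limma adjusted p = 0.0431) and Actl7a by 0.28 (SE 0.054, limma adjusted p = 0.0362). Actrt2 (-0.26, limma adjusted p = 0.0681) and Cylc2 (0.41, limma adjusted p = 0.0736) did not pass. Without M5 replicate 3, Cylc2 was called higher (0.53, limma adjusted p = 0.0158) and Ccin was not called (-0.33, limma adjusted p = 0.0604). That fit called 11.6% of all genes. None of the 3 was called without M1 replicate 1, 2 or 3 or without M5 replicate 1 or 2. Over all genes 56, 208, 85, 256 and 135 were called in these fits, against 980 with all libraries of M5 and M1. Over all 6 fits with 1 library left out the differences were -0.41 to -0.35 for Actl9, -0.40 to -0.30 for Ccin and -0.30 to -0.23 for Actl7a. Actl9, Ccin, Actl7a and Actrt2 were lower in every M5 library than in every M1 library (15% of all genes), and Cylc2 and Capza3 were higher (18.8%).

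Markers of other cells and stages also differed between M5 and M1. Of 12 elongating spermatid genes Tnp2 (-0.71) and Odf1 (-0.59) were called lower, and of 10 round spermatid genes Acr (-0.27) and Acrv1 (-0.24) were called lower and Catsper3 (0.22) higher. Of 10 spermatocyte genes Hormad1 (0.67) and Sycp1 (0.62) were called higher, and the summed level of that list was 736 to 801 FPKM in M5 and 653 to 712 in M1. Hba-a1, a red blood cell globin, was called higher (2.62), with the summed red blood cell markers at 148 to 491 FPKM in M5 and 27.2 to 79.4 in M1. All 6 Leydig cell, 5 tested macrophage and 7 tested interferon response genes had positive differences and none was called. The part of these in the values of the 8 genes was not tested.

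Against M3, limma called none of the 8 genes and 0.0138% of all genes, and 2077 genes had an unadjusted p under 0.05, among them Actl9, Actrt2, Ccin and Actl7a. Actl9 was at -0.29 (SE 0.068, limma adjusted p = 0.338) and Actrt2 at -0.25 (SE 0.080, limma adjusted p = 0.338). Actl9, Actl7a, Actrt2 and Capza3 were lower in every M5 library than in every M3 library, as were 8.52% of all genes. Without M3 replicate 3 Actl9 was at -0.32 (limma adjusted p = 0.0935) and Cylc2 at 0.30 (limma adjusted p = 0.263), where 1.3% of all genes were called. Without M5 replicate 3 Actl9 was at -0.25 (limma adjusted p = 0.458) and Cylc2 at 0.34 (limma adjusted p = 0.458), where 0% were called.

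Cylc2 and Actl9 parted in M5. The ratio of Cylc2 to Actl9 was 0.476 to 0.483 in the Con libraries, 0.476 to 0.507 in MNC and 0.460 to 0.493 in M1. It was 0.520, 0.570 and 0.682 in M3, the last in replicate 3, and 0.739 to 0.888 in M5. The ratio was thus nearly the same in Con and MNC, although both genes rose between them, and it was higher in every M5 library than in any other library. This ratio was chosen after the values were seen and is a description.

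**Figure D3:**
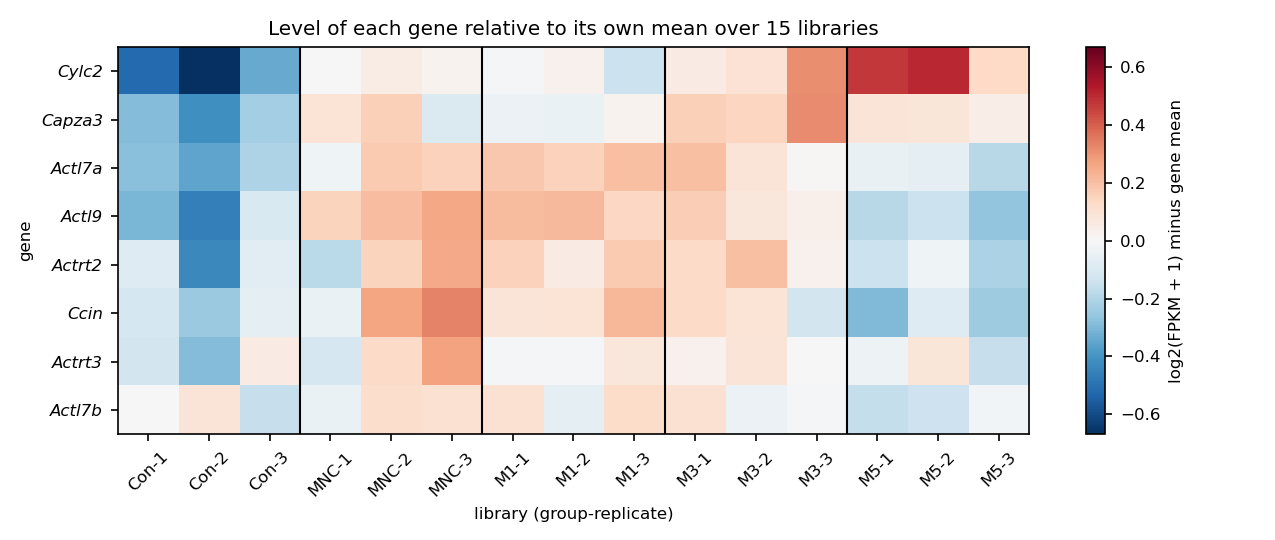
Level of each gene (rows) in each library (columns), as log2(FPKM + 1) minus the mean of that gene over the 15 libraries, with red above and blue below that mean. All Con libraries are blue for Cylc2, Capza3, Actl7a and Actl9, and in M5 Cylc2 is red (139 to 181 FPKM) where Actl9 is blue (188 to 204 FPKM).

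The differences were also set beside the base composition of the transcripts. Over all 13364 genes tested with a known GC content, the M5 against MNC differences had a Spearman correlation of -0.45 with the GC content of the longest transcript, as a description across genes. Among the 8, Cylc2 had the lowest GC content (38.9%) and Capza3 the next (44.8%), followed by Actrt3 (49.3%), Ccin (53.2%), Actl7a (53.7%), Actl9 (54.3%), Actrt2 (56.3%) and Actl7b (58.6%). Across the 8 genes, which share their libraries, the Pearson correlation with GC content was -0.82 in M5 against MNC, -0.88 in M5 against M1 and -0.79 in M5 against M3, and the Spearman correlation was -0.64, -0.60 and -0.55. The Pearson correlation was also negative where M5 was not involved, at -0.60 in MNC against Con and -0.65 in M3 against MNC. It was 0.63 in M1 against MNC and -0.78 for all lentivirus groups against Con. The Spearman correlation across the 8 was -0.36 in M3 against MNC and 0.74 in M1 against MNC. Over all genes the Spearman correlation was -0.38 in M3 against MNC and -0.24 in M1 against MNC. It was -0.36 in M5 against M1 and -0.23 in M5 against M3.

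With the trend of each library on GC content removed, no member was called in M5 against MNC or against M1. Over all genes, 0.793% were called in that fit of M5 against MNC and 0.883% in that of M5 against M1. Actl9 was then at -0.33 in M5 against MNC (limma adjusted p = 0.156), Ccin at -0.34 (limma adjusted p = 0.223) and Cylc2 at 0.16 (limma adjusted p = 0.513). In MNC against Con the Spearman correlation was 0.12 over all genes and -0.50 across the 8. The same 4 genes were called there with the trend removed, where 16.8% of all genes were, and Cylc2 was at 0.65 (limma adjusted p = 0.0196). In the comparison of all lentivirus groups with Con, 6 genes were then called, where 3713 of 13364 genes (27.8%) were, with Actrt2 (0.36, limma adjusted p = 0.0211) and Ccin (0.28, limma adjusted p = 0.0336) among them.

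**Figure D4:**
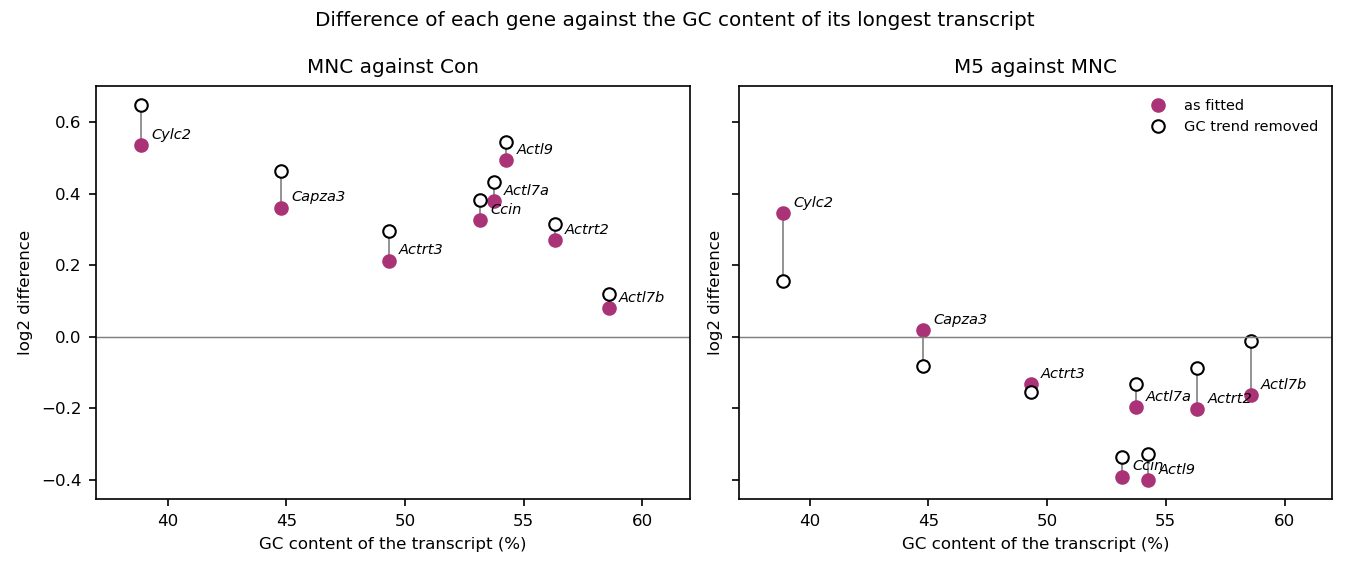
Difference in log2(FPKM + 1) (vertical axes) of the 8 genes against the GC content of the longest transcript in percent (horizontal axes), as fitted (filled) and with the GC trend of each library removed (open), for MNC against Con and M5 against MNC. In M5 against MNC, Cylc2 (38.9% GC) goes from 0.35 to 0.16 and Actl9 (54.3% GC) from -0.40 to -0.33.

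Of the 12 genes of the theca, the subacrosomal layer and spermatid actin, 1 was called in M5 against MNC, Pfn4, which encodes the spermatid profilin 4 and rose from 147 ± 7.42 to 205 ± 18.0 FPKM (SD, n = 3, limma adjusted p = 0.0317). M3 replicate 3 had 214 FPKM of Pfn4, against 172 and 156 in the other M3 libraries. Cylc1 had 72.8, 71.8 and 59.3 FPKM in M5 and 70.3 in M3 replicate 3, against 43.0 to 52.5 in MNC, and did not pass (0.46, limma adjusted p = 0.0640). The ratio of Cylc2 to Cylc1 was 2.35 to 2.51 in M5 and 2.45 to 2.96 in MNC, so the cylicins kept overlapping ratios there. In M5 against M1, 3 of the 12 were called lower, Actl11 (-0.37, limma adjusted p = 0.0264), Gsto2 (-0.31, limma adjusted p = 0.0413) and Wbp2nl (-0.33, limma adjusted p = 0.0469), the last a theca protein known from egg activation. Of the 11 genes listed as widely expressed none was called in M5 against MNC, and in M5 against M1 Capza2, a somatic capping subunit, was called higher (0.48, limma adjusted p = 0.0465).

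Of 12 elongating spermatid markers 1, Odf1, was called lower in M5 than in MNC and none higher (median -0.03, sum 25534 to 35237 FPKM in M5). Tnp2 had means of 5276 FPKM in MNC and 3227 in M5 (limma adjusted p = 0.0584), and Prm2 had 6415 and 8446 (limma adjusted p = 0.202). Of 10 round spermatid markers 1, Acr, was called lower (median 0.01, sum 1026 to 1110.3 FPKM in M5), and of 10 spermatocyte markers 2, Hormad1 and Sycp1, were called higher (median 0.09, sum 736 to 801 FPKM in M5). Red blood cell markers had a summed level of 148 to 491 FPKM in M5, 98.9 in M3 replicate 3 and 21.8 to 35.4 in MNC, with Hba-a1, Hbb-bs and Hbb-bt of 5 tested called higher. The part of these in the values of the 8 genes was not tested.

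Across the 15 libraries the 8 genes did not form a single group. As a description of log2(FPKM + 1), with libraries of 5 groups as the points, Pearson's r was 0.92 between Actl7a and Actl9, 0.87 between Actrt2 and Actrt3, 0.86 between Actrt2 and Ccin, and 0.82 between Cylc2 and Capza3. It was 0.00085 between Cylc2 and Ccin, both of the calyx, 0.41 between the neighbours Actl7a and Actl7b, and -0.37 between Actl7b and Cylc2. The 4 genes with the shared promoter letters had r from 0.35 (Actl7b and Actl9) to 0.92. Actrt2, whose promoter lacks them, had r of 0.86 with Actl7a, 0.82 with Actl9, 0.86 with Ccin and 0.35 with Actl7b. A part of the letters in these values was not tested.

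The genes outside the 8 with a pattern most like the mean of their standardized values were Fam166a, Fam187b, Thegl, 2610318N02Rik, Tssk2, Rcc1, Psmf1 and Zfand3, with Pearson's r of 0.966 to 0.973 over the 15 libraries. Tssk2, a spermatid kinase, had a mean of 247 FPKM in Con, 328 in MNC, 330 in M1, 327 in M3 and 292 in M5. Fam187b had 109.8 FPKM in Con, 167 in MNC, 171 in M1, 164 in M3 and 130.4 in M5.

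The genes next to the 8 on their chromosomes were also read. In MNC against Con, Mynn, 2216 bases from Actrt3, was at -0.21 (limma adjusted p = 0.0795), Glipr2, 4385 bases from Ccin, at 0.11 (limma adjusted p = 0.455) and Clta, 18282 bases from Ccin, at -0.10 (limma adjusted p = 0.568). Of the neighbours tested and reported here, Plcz1 and Klf4, 1207529 bases from Actl7b, were called higher in that comparison.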

How the data were processed

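RNA from 15 mouse testis libraries was analysed from 1 deposited table of FPKM. Per the study's methods, the authors sequenced poly(A) RNA on an Illumina HiSeq instrument and mapped reads to reference genes with SOAPaligner. The FPKM values deposited by the authors have 2 decimals, and the build given in the submitters' processing notes is mm10. The methods also name RPKM. The tissue is labelled testis, although the labels' extraction text mentions sperm. M5 replicate 2 was mapped to its column by its title, since its description names the column of M5 replicate 1.

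Rows were named through RefSeq GRCm38.p6 (21143 of 23510 IDs). GC content and length are those of the longest GENCODE transcript (GC known for 92.1% of the genes tested). Values were tested as log2(FPKM + 1) with limma 3.58.1 (lmFit, eBayes with trend) in R 4.3.3, in place of the study's count test. Fits held the 14514 genes that averaged at least 1 FPKM, with the 2 groups compared in each fit and all 15 libraries for the comparison of the lentivirus groups with Con. Tests were two-sided, p-values were adjusted by Benjamini-Hochberg over the 14514 genes, and called means an adjusted p below 0.05. Fold changes are on the log2(FPKM + 1) scale and understate those of low genes. The fits were tested on simulated data. Python 3.11.15 was used for tables.

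The 8 genes and all lists were chosen with earlier results of these data known. All 8 genes are named, with the 3 genes of highest mean FPKM in the lists nearest to them, genes of a list named after they were seen to be called, the 8 genes of most similar pattern and the nearest genes on each side, of which 1 is not reported here. Alternatives changed the pseudocount (0.1), the filter (mean FPKM of 0.1 or 5, or no filter), the scaling (median centring, quantile normalization, or removal of each library's GC trend), the variance model (no trend), the libraries in the fit (every group, or 1 library left out) and the block (replicate number). Same-numbered libraries of different groups did not deviate together, with correlations of their deviations from group means of -0.40 to 0.19 over 30 pairs, so the numbers were not taken to pair the samples.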

Additional observations from a re-analysis of the deposited data

Results flagged for a closer look

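Levels of 3 of the 8 genes differed between M5 and M1 in a direct test, and none of the 3 was called after centring on the median, with the GC trend removed or under the replicate block. Over all genes 1.74%, 0.883% and 0.269% were called in these settings, against 6.75% in the direct test. Actl9 had a log2 difference of -0.386 (limma adjusted p = 0.0156), with 199, 204 and 188 FPKM in M5 and 262, 263 and 249 in M1. Ccin had one of -0.341 (limma adjusted p = 0.0431) and Actl7a one of -0.278 (limma adjusted p = 0.0362), and for all 3 genes every M5 library was below every M1 library. With the GC trend removed they were -0.35, -0.32 and -0.25 (limma adjusted p = 0.102, 0.127 and 0.195). Actl9 kept its call with 1 library left out only in the fit without M5 replicate 3 (-0.35, limma adjusted p = 0.0158), and so did Actl7a (-0.23, limma adjusted p = 0.0218). That fit called 11.6% of all genes, and the others with 1 library left out called 0.386% to 1.76%. No test for an outlying library was run, since each group holds 3.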

How the results depend on the processing

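The calls of single genes depended on the setting. Over the 968 repeats of the 56 differences of single genes, 856 kept direction and side of the threshold, 62 lost the call, 18 gained it and 32 turned direction, and no called difference turned. In MNC against Con, 4 genes were called as reported, 2 with no filter, 0 with the replicate number as a block and 0 to 4 with 1 library left out. The shares called over all genes were 20.4%, 6.94%, 0.0689% and 0.0551% to 17.2%, in the same order. In M5 against MNC, 1 was called as reported, 0 after centring, 0 after removal of the GC trend, 0 without a variance trend, 0 under the replicate block, 3 with all groups in one fit, and 0 to 2 with 1 library left out. The shares over all genes were 5.65%, 1.25%, 0.793%, 1.48%, 0.0965%, 16.7% and 0.241% to 6.52%, in that order. In M5 against M1, 3 were called as reported, 1 with no filter, 0 with centring, 0 with the GC trend removed, 1 without trend, 0 with the replicate block and 0 to 3 with 1 library left out. The shares over all genes were 6.75%, 2.56%, 1.74%, 0.883%, 2.65%, 0.269% and 0.386% to 11.6%, in that order. In the comparison of the lentivirus groups with Con, 4 to 6 were called in all alternatives, where 19% to 44.9% of all genes were. The replicate block left 10 genes called over the whole table for MNC against Con, 14 for M5 against MNC and 39 for M5 against M1, and the labels give the numbers no shared animal or batch.

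Medians over the 8 genes moved as follows. For the lentivirus groups against Con, 0.30 became 0.40 with centring, 0.198 with quantile normalization and 0.404 with the GC trend removed, and lay between 0.20 and 0.35 with 1 library left out. For M3 against MNC, -0.02 became 0.0811 with the GC trend removed. For M5 against M1, -0.21 became -0.277 with centring, -0.154 with quantile normalization and -0.146 with the GC trend removed. For M5 against M3, -0.17 became -0.269 after centring and -0.223 after removal of the GC trend. With 1 library left out the medians lay between 0.29 and 0.42 for MNC against Con, -0.066 and 0.015 for M1 against MNC, -0.088 and 0.029 for M3 against MNC, -0.25 and -0.13 for M5 against MNC, -0.25 and -0.18 for M5 against M1, and -0.19 and -0.15 for M5 against M3.

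Differences near 0 turned direction. With quantile normalization, Actl7b turned to -0.026 in MNC against Con and to -0.092 against Con over the lentivirus groups, and Capza3 to -0.012 in M5 against MNC. With centring, in M1 against MNC Actl7b turned to 0.027 and Actl9 to 0.017, in M3 against MNC Actl7a to 0.065, Actl7b to 0.024 and Actrt3 to 0.011, and Capza3 to -0.019 in M5 against MNC. With the GC trend removed, in M1 against MNC Actl7b turned to 0.057 and Actl9 to 0.023, in M3 against MNC Actl7a to 0.082 and Actl7b to 0.093, and Capza3 to -0.082 in M5 against MNC and to -0.0089 in M5 against M1. With 1 library left out, Actl7b over the lentivirus groups against Con ranged from -0.038 to 0.082. In M1 against MNC Actl7b ranged from -0.056 to 0.054, Actl9 from -0.044 to 0.011, Actrt2 from -0.076 to 0.14, Actrt3 from -0.18 to 0.013 and Ccin from -0.17 to 0.023. In M3 against MNC Actl7a ranged from -0.066 to 0.044, Actrt2 from -0.083 to 0.14 and Actrt3 from -0.16 to 0.032. Capza3 in M5 against MNC ranged from -0.056 to 0.072 and Actrt3 in M5 against M1 from -0.12 to 0.0011. The cause was not tested. The estimated counting error of the 8 genes was 0.92% to 2.44%.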
